A study of Homo sapiens with 26 samples.

Results

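The 10 genes described here encode the inner membrane protein import machinery of mitochondria: TIMM17A, TIMM17B, TIMM50 and TIMM21 of the TIM23 complex, TIMM22 of the TIM22 complex, and TIMM44, PAM16, DNAJC19, GRPEL1 and HSPA9 of the import motor. They were chosen by name and role, with earlier results of these data known, from 60663 genes in the RNA-seq tables and 57770 single-gene entries in the ribosome profiling tables. Values came from 13 lysates of human HEK293T cells, an established embryonic kidney line, each split into a total input and a streptavidin pulldown, giving 26 libraries. All lines carried an Avi tag, the target peptide of the biotin ligase BirA, on the endogenous ribosomal protein RPL29. LOV-BirA, a BirA version that blue light switches on, was placed on the ER as a fusion to Sec61β, on the outer mitochondrial membrane (OMM) through the OMP25 transmembrane domain, or in the cytosol, from lentiviral insertions under the SFFV promoter at the ER and the EF1α promoter elsewhere. The 3 footprint groups, labelled ER, mito and cytosol, had 2 lysates each. The 4 RNA-seq groups all used the OMM ligase. Neg control gRNA, wild type cells with that guide, LARP4 null and AKAP1 null had 2 lysates each. Both null lines are labelled monoclonal, so genotype and clone cannot be told apart, while the neg control cells carry no such label. The study describes brief treatment with cycloheximide (CHX), which blocks translation elongation, before the light pulse, and the labels mention CHX only for the last group. That group, no CHX, had 1 lysate and was labelled without the drug. It received a shorter light pulse per the study's methods, so drug and light time cannot be told apart. Its labels name neither a guide nor a genotype.

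Most mitochondrial proteins are made by cytosolic ribosomes and imported. Proteins with an N-terminal presequence pass the outer membrane and then the TIM23 channel, and the motor, built around the HSPA9 chaperone, pulls them into the matrix. Metabolite carriers and other multispanning proteins, which lack a cleavable presequence, are inserted by the TIM22 complex. These translocase subunits are themselves imported.

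Depth ranged from 1025114 coding footprints in the OMM pulldown of replicate 1 to 19539527 in the ER pulldown of replicate 1, and from 38347615 to 100840544 counts in the RNA-seq libraries. The smallest libraries were both OMM pulldowns, with 1025114 and 2506515 coding footprints, so single-gene values there were the least precise. The 5 HEK293T markers VIM, KRT8, KRT18, CDH2 and PAX2 were all detected in the 7 RNA-seq total inputs, with VIM highest at a median of 498 CPM (counts scaled to the library total). Of 7 markers of other cells, CD3E, HBB and COL1A2 had 0 counts in every total input, PTPRC, DCN and ALB reached at most 2, 11 and 8 counts, and COL1A1 ranged from 7.16 to 23.1 CPM.

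The genes were not covered alike in the footprint tables. The counting tool kept only positions that it could assign to coding sequence without ambiguity, which left 585 positions for TIMM22 but 83 for TIMM17B, 360 of 1359 coding bases for TIMM44, 38 for DNAJC19 and 135 for HSPA9. HSPA9 never passed 2.32 CPM per kb of counted coding positions in a total input, and PAM16 was counted only in an entry shared by 3 genes. Of the 10 genes, 7 passed the minimum of 64 coding footprints in both OMM total inputs. Footprints over all exon positions, which include untranslated regions, gave values for 9 genes and are quoted beside the coding ones. PAM16 has no footprint value here.

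TIMM17A on chromosome 1 (201955503 to 201970664, GRCh38, plus strand) and TIMM17B on chromosome X (48893447 to 48898143, minus strand) encode alternative forms of the same channel subunit. Over 516 aligned bases their coding sequences in GENCODE 44 were 68.0% identical, and their longest shared run was 23 bases. That run is shown as the longest stretch the genes share, and it is shorter than the footprints that the study's methods say were counted. It lies in coding bases 22 to 51 of both transcripts, across an exon junction, with the shared run in capitals:
TIMM17A: cctTGCCCATGGCGAATTGTGGATGActgt
TIMM17B: cccTGCCCATGGCGAATTGTGGATGAttgc

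In total inputs the levels of the 10 mRNAs, in CPM per kb of gene length, spanned a wide range. In bulk lysates, fewer cells holding a message and less of it per cell cannot be told apart. HSPA9, the mitochondrial Hsp70, was highest, with a median of 64.7 and a range of 54.8 to 73.7 over 7 inputs. It did not overlap TIMM17A, which had a median of 42.7 and reached 50.6. GRPEL1, the nucleotide exchange factor of HSPA9, followed at 25.7. TIMM17B (19.2), TIMM44 (15.4), TIMM22 (15.4) and TIMM50 (14.0) overlapped in range. DNAJC19 (7.27) and TIMM21 (6.63) overlapped each other, and PAM16 was lowest at 2.34, with no overlap with any other member. Gene length here is the length deposited with the counts, not that of the principal transcript, so these ranks and overlaps depend on it. In CPM before division by length, PAM16 reached at most 5.89, and every other member had at least 21.6. Over all exons, footprint density in CPM per kb placed HSPA9 first (median 73.9) and TIMM21 last of the 9 genes (median 3.97). Its divisor was all exon positions, untranslated regions included (7245 for HSPA9 and 3966 for GRPEL1), so the order depends on that length. In the counted coding positions GRPEL1 was first (median 563), but HSPA9 could not be read there.

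The first question was which of these messages were translated next to mitochondria. Footprints of TIMM17B were the most enriched by the OMM ligase in the coding positions and those of TIMM44 over all exons, and no member was called lower. On the scale of library totals, 4 of the 7 genes tested were higher in the OMM pulldown by edgeR's quasi-likelihood test (adjusted p below 0.05), against 17.0% of all 6742 genes tested, while 46.0% of them were lower. The median of the 7 was 0.50 in log2, beside -0.38 for all genes. All 7 lay above that median, and with TMM scaling, which moved it to -0.02, all 7 were called higher, as were 27.0% of all genes.

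TIMM17B rose from 19.6 to 50.0 CPM of coding footprints in OMM replicate 1 and from 28.3 to 54.5 in replicate 2. Both pulldowns exceeded both total inputs. The change was 1.1 ± 0.19 in log2 (SE, n = 2 lysates, edgeR adjusted p = 0.00013), and 1.17 ± 0.10 over all exons.

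TIMM17A went from 220 to 303 and from 244 to 352 CPM of coding footprints. The groups did not overlap, and the change was 0.50 ± 0.11 in log2 (n = 2, edgeR adjusted p = 0.00088). TIMM21, a TIM23 subunit that also links to the respiratory chain, rose by 0.60 ± 0.21 (n = 2, edgeR adjusted p = 0.0214). Its replicates gave 0.57 and 0.63 from few footprints, 30 and 93 in the pulldowns and 101.8 and 130.8 in the inputs. TIMM50, the receptor that hands presequence proteins to the channel, had a log2 difference of 0.16 ± 0.13 (n = 2, edgeR adjusted p = 0.264).

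TIMM22, the pore subunit of the carrier translocase, was the only member with replicates on both sides of 0 at the OMM, at -0.17 and 0.36 in log2. Its fitted difference was 0.13 ± 0.14 (n = 2, edgeR adjusted p = 0.433). GRPEL1 was close to 0 in both replicates, 0.12 and 0.10, with a fitted difference of 0.11 ± 0.10 (n = 2, edgeR adjusted p = 0.328).

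TIMM44, the peripheral subunit that anchors the motor to the channel, depended on which positions were counted. In the coding positions it went from 72.0 to 120 CPM in replicate 1 and from 76.5 to 103 in replicate 2, a change of 0.57 ± 0.14 in log2 (n = 2, edgeR adjusted p = 0.00251). Over all exons it went from 124 to 568 and from 127.9 to 605 CPM. That change was 2.22 ± 0.09 in log2 (n = 2, edgeR adjusted p = 3e-12), the largest of the 9 genes.

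**Figure D1:**
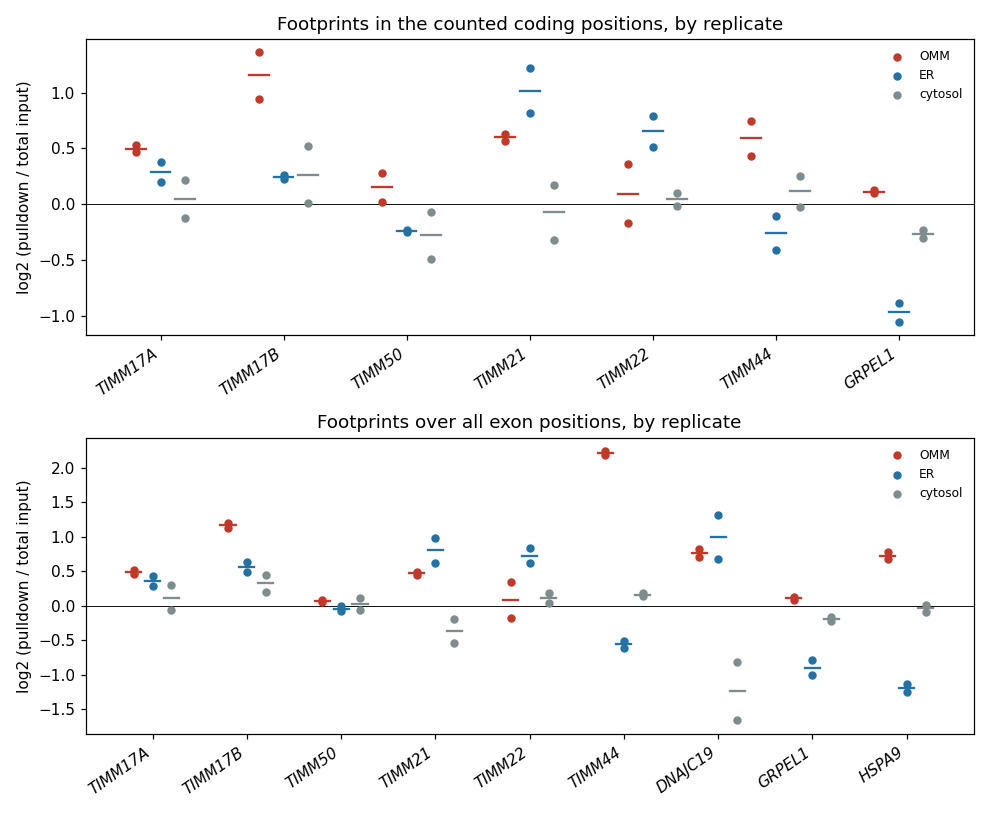
Each point is 1 lysate and each bar the mean of 2; the y axis is log2 of pulldown over total input, scaled to library totals, for OMM, ER and cytosol LOV-BirA. TIMM44 over all exons stood highest at the OMM (2.19 and 2.24), while GRPEL1 and HSPA9 were lowest at the ER.

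The counted coding positions of TIMM44 lay near its start: rebuilt from GENCODE 44, those in the principal isoform began at codon 1 and had their median at codon 52 of 452. The rebuilt set holds 423 positions where the table counted 360, so this placement is approximate. In the OMM total inputs 36.3% (95% Wilson interval 33.4 to 39.3) and 37.6% (34.8 to 40.5) of TIMM44 exon footprints fell in the counted part. In the OMM pulldowns the share was 13.3% (11.3 to 15.7) and 10.7% (9.48 to 11.9), below both inputs, and the intervals cover counting error only. No drop of this size was seen with the other ligases. ER pulldowns had shares of 50.3% and 47.4% against inputs of 40.9% and 34.6%, and cytosol pulldowns 43.7% and 43.9% against 39.6% and 45.9%. Relative to the rest of its exon footprints, the counted part of TIMM44 shifted by -1.89 and -2.34 in log2 at the OMM. Among all genes with enough reads in both parts, 0.92% of 2812 and 0.21% of 3734 shifted further down. The other members with enough reads in both parts at the OMM were TIMM50, which shifted by -0.05 and 0.36, and TIMM17B, which shifted by 0.19 and -0.26. This share was computed after the values had been seen and was given no test.

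**Figure D2:**
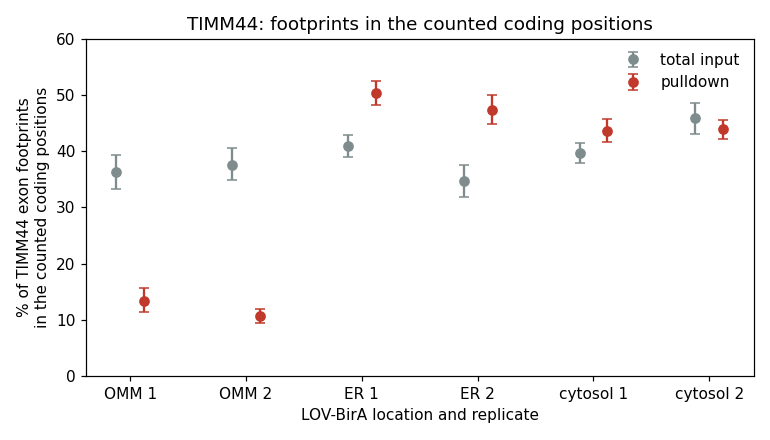
The y axis is the percentage of TIMM44 exon footprints that fall in the counted coding positions, for each location and replicate; grey is total input, red is pulldown, and bars are 95% Wilson intervals. Only the 2 OMM pulldowns lie below 20%, at 13.3% and 10.7%.

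HSPA9 and DNAJC19 could be read only over all exons. HSPA9 went from 553 to 888 and from 692 to 1184 CPM at the OMM, both pulldowns above both inputs. The change was 0.73 ± 0.08 in log2 (n = 2, edgeR adjusted p = 1e-06). DNAJC19, a J-domain protein of the motor, went from 21.3 to 34.5 and from 24.8 to 43.9, a change of 0.77 ± 0.22 (n = 2, edgeR adjusted p = 0.00537). With these, 6 of 9 genes were higher over all exons, where 16.5% of 8440 genes were. The coding calls depended on matching each pulldown to its own input: without that term none of the 7 coding values was called (7.64% of all genes higher). Without OMM replicate 1, 2 of 7 were called higher (13.5%), and without replicate 2 also 2 (11.8%).

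At the ER the calls depended on the scale. On library totals TIMM21, TIMM22 and TIMM17A were higher in the pulldown, whereas GRPEL1, TIMM50 and TIMM44 were lower, so 3 of 7 were higher (19.9% of 7390 genes) and 3 lower (72.1%). The median gene stood at -0.68, and only GRPEL1 lay below it. With TMM, which moved the median to -0.02, 6 of 7 were higher (29.7%) and only GRPEL1 was lower (24.4%).

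TIMM21 gave ER values of 0.82 and 1.22 in log2, and rose by 1.00 ± 0.15 (n = 2, edgeR adjusted p = 9.1e-06). TIMM22 gave 0.52 and 0.79, and rose by 0.65 ± 0.12 (n = 2, edgeR adjusted p = 6.8e-05). DNAJC19 rose by 0.96 ± 0.17 over all exons (n = 2, edgeR adjusted p = 3.4e-05).

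GRPEL1 went from 371 to 201 and from 351 to 169 CPM of coding footprints at the ER. It fell by 0.97 ± 0.09 in log2 (n = 2, edgeR adjusted p = 2.5e-08), and stayed lower with TMM. HSPA9 over all exons fell from 518 to 237 and from 727 to 307 CPM, a change of -1.19 ± 0.08 (n = 2, edgeR adjusted p = 3.4e-10). TIMM50 (-0.24) and TIMM44 (-0.27) turned around with the scaling, to 0.42 and 0.39 with TMM, so neither has a direction at the ER beyond the scale chosen.

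With LOV-BirA free in the cytosol, none of 6 genes tested was called in either direction, where 7.97% of 7173 genes were. DESeq2 also called none, whereas on a scale of mapped reads 3 (TIMM17A, TIMM17B and TIMM44) were called higher, where 33.7% of all genes were and the median gene moved from 0.02 to 0.26. On library totals 2 of the 6, TIMM50 (-0.28) and GRPEL1 (-0.26), had an unadjusted edgeR p below 0.05. Over all exons TIMM17B was 0.32 ± 0.09 higher in log2 (n = 2, edgeR adjusted p = 0.0293) while DNAJC19 had a change of -1.18 ± 0.18 (n = 2, edgeR adjusted p = 0.00041), 2 calls of 9 where 10.5% of 8983 genes were called. In its coding positions DNAJC19 stood at 0.09 and -0.23, from 71.8 and 12.2 input footprints, the second below the minimum of 64. Both libraries of cytosol replicate 2 stood apart for TIMM17B, GRPEL1 and TIMM44. Its total input held 75.9 TIMM17B CPM of coding footprints where the other 5 inputs held 19.6 to 29.3, and 210 for GRPEL1 where the others held 342 to 371. Its pulldown held 76.3 for TIMM17B and 171 for GRPEL1, against 35.5 and 306 in the pulldown of replicate 1. For TIMM44 its total input held 129 where the others held 60.1 to 76.5, and its pulldown held 127 against 84.6. Without this lysate TIMM17B was called higher (0.52) and TIMM50 lower (-0.49), 2 of 8 members tested, where 8.86% of all genes were called.

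Set directly against the cytosol, 5 of 6 genes were more enriched at the OMM and none less, where 16.5% of 6482 genes were more and 39.8% less. The differences were 0.84 ± 0.24 for TIMM17B, 0.46 ± 0.15 for TIMM17A, 0.45 ± 0.17 for TIMM50, 0.45 ± 0.19 for TIMM44 and 0.37 ± 0.13 for GRPEL1 in log2. TIMM22 differed by 0.10 ± 0.19. Over all exons TIMM44 (2.06 ± 0.12), DNAJC19 (1.95 ± 0.28), TIMM21 (0.86 ± 0.24), TIMM17B (0.84 ± 0.14), HSPA9 (0.77 ± 0.11) and TIMM17A (0.39 ± 0.14) were called. TIMM50 (0.04 ± 0.12) and GRPEL1 (0.29 ± 0.12) lost their calls there. Of the 6 coding differences, none was called with no matching of pulldown to input (3.1% of all genes higher) and only TIMM17B with mapped reads (11.7%). Without OMM replicate 1 only TIMM50 was called (13.6%), without OMM replicate 2 only TIMM17B (11.6%), and without cytosol replicate 1 there were 3 (18.0%). Without cytosol replicate 2 the TIMM17B difference was 0.58, still called, and TIMM44 lost its call (0.31).

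Against the ER, GRPEL1 was 1.08 ± 0.13 higher at the OMM in log2 (n = 2, edgeR adjusted p = 2.4e-06), and TIMM44 0.84 ± 0.19 (n = 2, edgeR adjusted p = 0.00133). Over all exons TIMM44 differed by 2.78 ± 0.12 and HSPA9 by 1.91 ± 0.11, whereas DNAJC19, also of the motor, had -0.19 ± 0.27 and was not called. TIMM17B was 0.86 ± 0.24 higher, a call lost with TMM (0.61). On library totals TIMM22 was the only member called lower at the OMM than at the ER, by -0.51 ± 0.19 (n = 2, edgeR adjusted p = 0.0316), a call lost without OMM replicate 1 (-0.29) or ER replicate 2 (-0.39). In all, 3 of 7 genes were called higher (31.1% of 6691 genes) and 1 lower (18.6%), and the median gene differed by 0.28. None of the 7 was called with no matching of pulldown to input, where 509 of 6691 genes were higher and 839 lower. For TIMM21 (-0.40, 95% interval -0.91 to 0.10) and TIMM17A (0.21, -0.08 to 0.50) no difference was called on library totals, and TIMM21 was called lower over all exons with TMM (-0.61).

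The second readout asked which whole mRNAs came down with labelled ribosomes. In neg control gRNA cells, 9 of the 10 mRNAs were higher in the OMM pulldown by edgeR, where 20.2% of 13856 genes were. Their median was 0.63 in log2, beside -0.28 for all genes.

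TIMM17B went from 51.6 to 178 and from 49.9 to 174 CPM. This change, 1.79 ± 0.10 in log2 (n = 2, edgeR adjusted p = 8.2e-06), was the largest of the 10. TIMM44 went from 73.9 to 235 and from 67.1 to 236, a change of 1.74 ± 0.14 (n = 2, edgeR adjusted p = 3.2e-05).

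The same readout gave DNAJC19 0.83, TIMM17A 0.80, TIMM22 0.65, GRPEL1 0.61, TIMM21 0.44, HSPA9 0.38 and TIMM50 0.31 in log2, all called. Without neg control replicate 1 the calls of HSPA9 and TIMM50 were lost, leaving 7 of 10 (13.4% of all genes higher). Without replicate 2, or with no matching of pulldown to input, that of TIMM21 was lost too, leaving 6 (12.2% and 13.6%). PAM16, a regulator of the motor's J-domain protein, was at 0.27 ± 0.21 (n = 2, edgeR adjusted p = 0.268), and was called with TMM (0.57). It is also the least abundant, and its reads overlap those of a read-through gene, so its counts are uncertain. TIMM22, TIMM50 and GRPEL1 were called in this readout but not in OMM footprints on library totals, and all 3 were called in footprints with TMM. The difference between readouts was not tested.

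**Figure D3:**
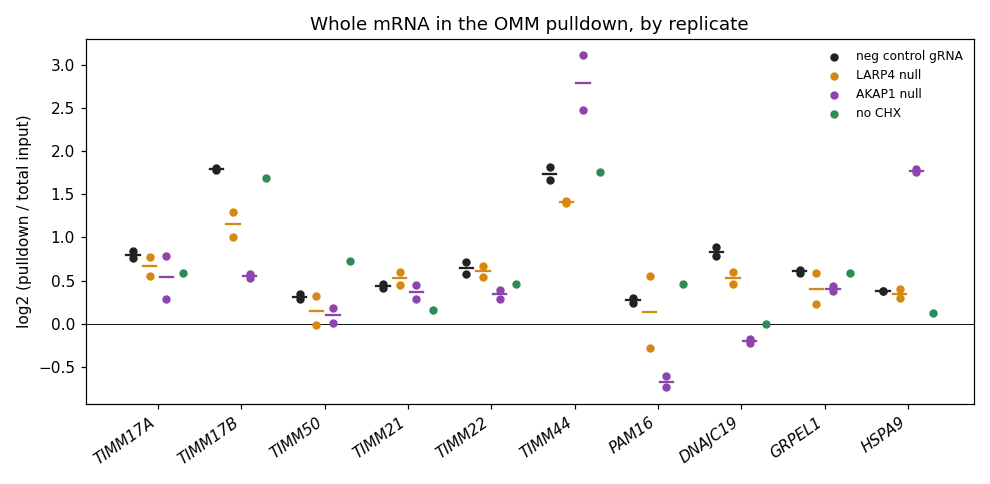
Each point is 1 lysate; the y axis is log2 of OMM pulldown over total input in RNA-seq counts, scaled to library totals, and bars are means of 2 lysates. HSPA9 and TIMM44 stand higher in both AKAP1 null lysates than in any other lysate, and TIMM17B stands lowest there.

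Before the null lines are compared, the targeted genes were read in every sample. AKAP1 mRNA was at 115 and 119 CPM in the neg control total inputs and at 32.2 and 20.3 in the AKAP1 null ones. LARP4 mRNA was at 225 and 231 in neg control and at 79.3 and 74.0 in LARP4 null. Both moved the way the labels say. The 10 members themselves were not called different in total inputs of either null line: edgeR called 0 of 13977 genes for AKAP1 null (0% of genes, 489 at an unadjusted p below 0.05 and 15 by DESeq2) and 2 for LARP4 null (0.0143%). AKAP1 itself was therefore not called in AKAP1 null by edgeR, despite its fall, so a member without a call may still have changed. The members' log2 changes ran from -0.18 (TIMM17B, LARP4 null) to 0.24 (TIMM22, AKAP1 null).

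AKAP1 null cells kept OMM enrichment for most of the group but shifted it between members. In these cells 7 of 10 mRNAs were higher in the pulldown (13.9% of 13856 genes) and PAM16 was lower (28.1% of genes), at -0.67 ± 0.21 in log2 (n = 2, edgeR adjusted p = 0.0335). Without AKAP1 null replicate 1 the members called higher numbered 2 (3.48% of all genes), and without replicate 2 they numbered 3 (3.7%).

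HSPA9 stood at 789 and 740 CPM in the neg control pulldowns and at 1813 and 2191 in the AKAP1 null ones. Its total inputs were 606 and 570 in neg control and 536 and 632 in AKAP1 null. The pulldowns did not overlap, whereas the inputs did. Its OMM enrichment rose by 1.40 ± 0.12 in log2 over neg control (n = 2, edgeR adjusted p = 0.0004).

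TIMM44 enrichment was 1.67 and 1.81 in neg control and 2.47 and 3.11 in AKAP1 null. The groups did not overlap, and the difference was 1.05 ± 0.20 (n = 2, edgeR adjusted p = 0.0109). That call was lost without AKAP1 null replicate 2 (0.73), and without either neg control replicate (0.98 and 1.12).

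TIMM17B enrichment fell from 1.78 and 1.80 in neg control to 0.58 and 0.53 in AKAP1 null. The difference was -1.24 ± 0.14 (n = 2, edgeR adjusted p = 0.00076). DNAJC19 fell from 0.78 and 0.88 to -0.17 and -0.22, a difference of -1.03 ± 0.13 (n = 2, edgeR adjusted p = 0.0014).

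Thus 2 members were called higher (6.52% of 13856 genes) and 2 lower (7.96%), and the median gene differed by 0.19. PAM16 differed by -0.94 ± 0.29 and missed the threshold (n = 2, edgeR adjusted p = 0.0662), and passed it with TMM (-1.12). TIMM17A (-0.26), TIMM22 (-0.30), TIMM50 (-0.22), GRPEL1 (-0.20) and TIMM21 (-0.07) were not called. The AKAP1 null lysates disagreed for TIMM17A, whose enrichments were 0.79 and 0.28, and its difference was -0.52 without replicate 1 and -0.01 without replicate 2. TIMM17A and TIMM17B, which encode forms of the same subunit, were not called and called respectively, and their difference was not tested. The members called higher encode the longest proteins of the group, 679 residues for HSPA9 and 452 for TIMM44. Those called lower encode 172 (TIMM17B) and 116 (DNAJC19), and the 6 with no call encode 125 to 353.

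In LARP4 null cells 8 of 10 mRNAs were higher in the OMM pulldown (22.8% of 13856 genes) and none lower (30.0%). TIMM44 (1.42) and TIMM17B (1.16) led again. Against neg control, no member was called, and edgeR called 0 of 13856 genes (0%), with 2270 at an unadjusted p below 0.05 and 507 by DESeq2. TIMM17B gave the largest value, from 1.78 and 1.80 to 1.30 and 1.01, a difference of -0.64 ± 0.13 (n = 2, edgeR adjusted p = 0.172), and DESeq2 called it. Without LARP4 null replicate 1, 4 of 10 members were called, near the 41.0% of all genes called there. For HSPA9 the difference was -0.03 with a 95% interval of -0.26 to 0.20, and for TIMM44 -0.33 with an interval of -0.71 to 0.06. Both null comparisons share the neg control lysates.

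**Figure D4:**
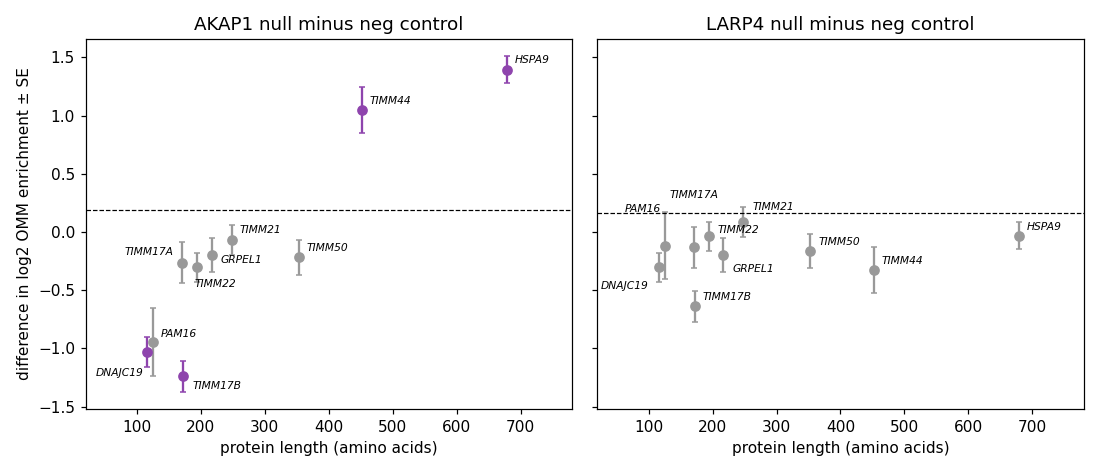
Points are the 10 members, x is protein length in amino acids and y is the difference in log2 OMM enrichment of whole mRNA from neg control ± SE; purple marks an adjusted p below 0.05 and the dashed line is the median of all genes. In AKAP1 null HSPA9 (1.40) and TIMM44 (1.05) lie above that line and TIMM17B (-1.24) and DNAJC19 (-1.03) below it, and in LARP4 null no member was called.

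Compared directly, the null lines differed for the same 4 members: HSPA9 (1.43 ± 0.12) and TIMM44 (1.38 ± 0.20) were higher in AKAP1 null, and DNAJC19 (-0.73 ± 0.13) and TIMM17B (-0.60 ± 0.13) lower. The shares of all 13856 genes were 1.72% higher and 2.94% lower. Without AKAP1 null replicate 2 edgeR called 0 of 13935 genes, with 1700 at an unadjusted p below 0.05. The 4 differences were then 1.41 for HSPA9, 1.06 for TIMM44, -0.70 for DNAJC19 and -0.57 for TIMM17B. Without AKAP1 null replicate 1, 2 members were called (1.94% of all genes). The TIMM17B call was also lost with DESeq2 (-0.54) and with TMM (-0.57). Only 1 member was called with no matching of pulldown to input, where 70 of 13856 genes were higher and 20 lower. In a fit of only the groups compared 2 members were called, where 166 of 13997 genes were higher and 157 lower.

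Without CHX, in 1 lysate and with no test, TIMM44 (1.76) and TIMM17B (1.69) again had the highest log2 values of the 10. The neg control lysates gave 1.67 and 1.81 for TIMM44 and 1.78 and 1.80 for TIMM17B. The median of the 10 was 0.52, beside -0.13 for all genes past 64 counts. DNAJC19 was at 0.00 (95% counting interval -0.09 to 0.08), under the neg control values of 0.78 and 0.88. HSPA9 was at 0.12, under 0.38 in both neg control lysates, and TIMM50 at 0.73, over 0.28 and 0.35. TIMM21 (0.16, against 0.42 and 0.46), TIMM17A (0.59, against 0.76 and 0.84) and TIMM22 (0.46, against 0.58 and 0.72) also lay under both neg control values. PAM16 lay over both, at 0.46 against 0.24 and 0.30.

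Other genes of these complexes, were listed by role. ROMO1, a small inner membrane protein linked to both translocases, was enriched at the OMM in footprints by 1.08 ± 0.10 in log2 and in neg control mRNA by 2.21 ± 0.13, and fell by 1.95 ± 0.18 in AKAP1 null. AGK, a lipid kinase that is also a TIM22 subunit, rose by 1.31 ± 0.13 in AKAP1 null, and GRPEL2, the paralogue of GRPEL1, by 0.56 ± 0.12, a call lost with DESeq2 (0.41) and with TMM (0.39). Of the 6 such genes tested in that comparison, 2 were higher (6.52% of all genes), 1 lower (7.96%) and 3 not called. TIMM23, the channel subunit itself, shares nearly all its sequence with TIMM23B and is uncertain.

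Among the earlier import steps (TOM subunits, small TIM chaperones, CHCHD4 and GFER), 10 of 14 were higher in the neg control OMM pulldown (20.2% of all genes) and 2 lower (45.6%). In AKAP1 null against neg control 8 of 14 were lower (TIMM13, TOMM22, TIMM9, TIMM10, TIMM8B, CHCHD4, TOMM5 and TOMM7), beside 7.96% of all genes, and TOMM70 was higher (6.52%), a call lost with TMM. All 4 presequence processing genes (PMPCA, PMPCB, MIPEP, XPNPEP3), whose products cleave imported precursors, were higher, with 1.17 ± 0.17 for PMPCA and 1.59 ± 0.22 for MIPEP.

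The genes most like each member over the 13 lysates, by root mean square difference of log2 enrichment among 6425 genes, were BCKDK for TIMM44 (0.30), MICOS13 for TIMM17B (0.22), BAX for TIMM17A (0.16), KHK for TIMM22 (0.17), CZIB for TIMM50 (0.18) and ALYREF for GRPEL1 (0.12). TIMM44 had the largest distance to its nearest gene of these 6, and GRPEL1 the smallest.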

How the data were processed

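Footprint tables held expected counts and RPKM per gene, deposited by the authors: reads were aligned to GRCh38 (Bowtie for rRNA and tRNA removal, then TopHat) and counted with plastid over unambiguous coding or exon positions. RNA-seq tables held raw counts per gene, deposited by the authors after STAR and featureCounts; their FPKM column was not used. The RPKM values deposited by the authors served only to recover mapped reads for a scaling alternative. Between 3 and 7 broken lines per RNA-seq file were left out.

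Expected counts were rounded and fitted with edgeR 4.0.16 (quasi-likelihood), with a term for each lysate and a pulldown effect per line, library totals as scale, at least 64 counts in each total input compared (RNA-seq, a mean of 64), and Benjamini-Hochberg adjustment over all genes. Total inputs used TMM. SE is the log2 change divided by the root of F; enrichments per lysate add 0.5 counts. Pairing comes from the study's methods, since both fractions share a lysate; deviations of paired libraries correlated at 0.63 to 0.88. The study calls the OMM footprint replicates biological; for the others no separate cultures are stated, so those p-values may measure technical spread only. On simulated data the OMM footprint fit recovered 88.9% of genes changed by 1 in log2 and 9.5% of those changed by 0.5. For the AKAP1 null difference these were 86.5% and 1.5%. The simulated spread was fixed in advance and the same for all genes, not estimated from these data. These rates are thus not the power of the tests on the real counts. Alternatives were DESeq2 1.42.0, other minimums and scalings, all exons, no lysate term, and each replicate left out. Members, lists and the named-gene rule (role lists, targeted genes, nearest genes) were chosen with earlier results of these data known. Coordinates and coding sequences are from GENCODE 44, not the authors' release.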

Additional observations from a re-analysis of the deposited data

Results flagged for a closer look

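Differences between groups that passed the test of the difference itself (edgeR, adjusted p below 0.05) are collected here with their log2 values. Calls described above as lost in other fits carry that limit here too. Between OMM and cytosol footprints these were TIMM17B 0.84, TIMM17A 0.46, TIMM44 0.45, TIMM50 0.45, GRPEL1 0.37 and ROMO1 1.21. Between OMM and ER footprints they were GRPEL1 1.08, TIMM17B 0.86, TIMM44 0.84, TIMM22 -0.51, ROMO1 1.40, GRPEL2 0.50 (0.25 and not called with TMM) and TIMM23 -1.34. The TIMM22 call was lost without OMM replicate 1 or ER replicate 2. TIMM23 is uncertain because of TIMM23B, and its OMM pulldowns held only 15.9 and 66.4 coding footprints. Between AKAP1 null and neg control mRNA enrichment they were HSPA9 1.40, TIMM44 1.05, TIMM17B -1.24, DNAJC19 -1.03, AGK 1.31, GRPEL2 0.56 and ROMO1 -1.95. Between AKAP1 null and LARP4 null they were HSPA9 1.43, TIMM44 1.38, TIMM17B -0.60, DNAJC19 -0.73, AGK 1.47 and ROMO1 -1.10.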

How the results depend on the processing

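Counts of members called, higher for enrichments and in either direction for differences, moved as follows. For OMM footprints, 4 became 7 with DESeq2 or TMM and 9 over all exons with TMM. That last alternative was chosen after seeing the data, as were its other uses below. The count was 0 with no replicate block, and each replicate alone left 2. Higher over all genes were 1709 of 6742 with DESeq2 and 2256 of 8440 over all exons with TMM. For ER footprints, 3 became 6 with DESeq2, TMM, or all exons with TMM, and 5 over all exons. Over all genes, 1945 of 7390 were higher with DESeq2, 1878 of 9004 over all exons and 2778 of 9004 over all exons with TMM. For cytosol footprints, 0 became 3 when scaled to mapped reads (33.7% of all genes higher) and 1 over all exons with or without TMM; leaving out a replicate gave 0 to 1. For OMM minus cytosol, 5 became 0 with no replicate block, 1 with mapped reads and 8 over all exons with TMM. In that last fit 2094 of 8264 genes were higher and 1806 lower. Leaving out a replicate gave 1 to 5. For OMM minus ER, 4 became 0 with no replicate block, and leaving out a replicate gave 2 to 4. With no replicate block, AKAP1 null enrichment went from 7 to 3, LARP4 null from 8 to 5, and AKAP1 null minus LARP4 null from 4 to 1. Of all 13856 genes, those higher went from 1930 to 632 in AKAP1 null and from 3161 to 1576 in LARP4 null. Between the null lines, genes higher went from 239 to 70 and genes lower from 408 to 20. Leaving out a replicate gave 2 to 3 for AKAP1 null enrichment, 0 to 4 for LARP4 null minus neg control and 0 to 5 for AKAP1 null minus LARP4 null. LARP4 null minus neg control went from 0 to 1 with DESeq2 or no minimum of counts, and AKAP1 null minus LARP4 null from 4 to 2 with only the groups compared. Between LARP4 null and neg control DESeq2 called 4 of 13856 genes higher and 503 lower. No minimum of counts gave 771 of 39877 higher and 316 lower. The median member enrichment without CHX, 0.52, became 0.62 with TMM. For total inputs the replicate block left 0 members called; same-numbered inputs of different lines share only a number (correlations of 0.31, 0.21 and -0.12).

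Directions turned as follows, and the cause was not tested. At the ER, TIMM50 became 0.384 (DESeq2), 0.417 (TMM), 0.0433 (mapped reads) and 0.576 (all exons, TMM), and TIMM44 0.364, 0.393, 0.0217 and 0.0586. ROMO1 there became 0.309 (DESeq2), 0.342 (TMM) and 0.411 (all exons, TMM), and GRPEL2 0.0086 and 0.0069 (TMM, coding and all exons). TIMM17A, OMM minus ER, became -0.0521 (DESeq2), -0.0418 (TMM), -0.0913 (mapped reads) and -0.144 (all exons, TMM), and TIMM50 -0.17 (all exons, TMM). TIMM50 in the cytosol became 0.0293 over all exons and 0.0376 with TMM too. TIMM22, OMM minus cytosol, became -0.157 with mapped reads. TIMM21, LARP4 null minus neg control, became -0.118 with DESeq2 and -0.119 with TMM. For AKAP1 null minus LARP4 null, TIMM50 became 0.0045 with DESeq2 and GRPEL1 -0.0271 with no replicate block. Leaving out 1 replicate turned uncalled values only, with these ranges. TIMM22 (-0.179 to 0.358) ranged so at the OMM. TIMM17A (-0.126 to 0.214), TIMM22 (-0.0148 to 0.0982) and TIMM44 (-0.0222 to 0.256) ranged so in the cytosol. TIMM22 (-0.217 to 0.321) ranged so for OMM minus cytosol. TIMM50 (-0.0142 to 0.32) and PAM16 (-0.276 to 0.554) ranged so in LARP4 null. TIMM21 (-0.156 to 0.0154) ranged so for AKAP1 null minus neg control. TIMM50 (-0.329 to 0.005), TIMM22 (-0.107 to 0.0323), PAM16 (-0.548 to 0.282) and HSPA9 (-0.0836 to 0.0218) ranged so for LARP4 null minus neg control. TIMM17A (-0.385 to 0.121), TIMM50 (-0.223 to 0.111) and GRPEL1 (-0.18 to 0.182) ranged so for AKAP1 null minus LARP4 null. Depth limits the OMM pulldowns most, and DNAJC19 and HSPA9 have too few coding footprints to be read there.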
